A study of Mus musculus with 24 samples.

Results

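The 10 genes described here belong to the ATF4 axis of the integrated stress response: the regulators Atf4, Atf5 and Ddit3, the feedback genes and growth brakes Trib3, Ddit4 and Sesn2, and the amino acid and glutathione genes Asns, Chac1, Slc7a11 and Slc3a2. They were chosen by name, with earlier results of these data known. They were found by their Entrez identifiers among 36528 gene rows. All 10 were among the 17468 genes that passed the filter on low counts. Expression was measured by sequencing of polyA RNA from cells sorted from mouse tumours of small-intestine origin. The tumours carry the genotype recorded as AKVPL, and the sample names carry EpCAM, a surface protein of epithelium. Diphtheria toxin (DT) was given to deplete cells that express Lgr5, which encodes a receptor found on stem cells of the intestine, and saline served as the control. DT and saline libraries were made at 24, 48 and 96 h, with 4 libraries in each of 6 groups and 24 libraries in all. The 48 h libraries, DT and saline alike, carry sample numbers in a separate, later block than those of 24 and 96 h. What that block stands for was not examined, so 48 h cannot be told apart from it in comparisons among times. All 6 groups share the AKVPL genotype; the labels do not spell out its alleles, and give no strain, age or sex. Nothing in them ties the replicates to different animals, and the p-values below therefore rest on a spread among libraries that could be technical.

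In the integrated stress response, kinases that sense amino acid shortage, misfolded protein, heme loss or double-stranded RNA phosphorylate the initiation factor eIF2. General translation then slows, while the mRNA of the transcription factor ATF4 is translated more. ATF4 in turn activates genes of amino acid uptake and synthesis, tRNA charging and redox defence, and, with the factor CHOP encoded by Ddit3, genes of feedback and cell death. Much of the control of ATF4 is therefore at translation, which mRNA counts do not show.

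Library totals ran from 10888654 to 27707554 counts. The raw counts of the 10 genes ran from 20 for Chac1 in its lowest library to 10702 for Atf4 in its highest. Lgr5 averaged 81.3 ± 3.72 CPM in DT and 199.7 ± 16.9 CPM in saline libraries at 24 h (counts scaled by effective library size; SD, n = 4 each), 120.5 ± 35.1 and 182 ± 14.0 CPM at 48 h, and 127 ± 5.35 and 171 ± 13.7 CPM at 96 h. Replicate 3 of the DT group at 48 h held 171 CPM of Lgr5, inside the saline range of that time. The epithelial markers summed to 7260 to 9054 CPM in DT and 7023 to 7599 CPM in saline libraries at 24 h, with Cdx1, an intestinal homeobox gene, under 1 CPM in every library. Of the other cell types, the 10 fibroblast markers summed to 2993 to 7005 CPM in DT and 3585 to 4200 CPM in saline libraries at 24 h, and to 7284 to 11784 and 3739 to 7496 CPM at 48 h. The 10 macrophage and monocyte markers summed to 221 to 559 CPM in DT and 339 to 469 CPM in saline libraries at 24 h, and 6 of 8 T and NK cell markers and 4 of 5 B cell markers were under 1 CPM in every library, Nkg7 being at 0. At 96 h the fibroblast sums were 5628 to 10249 CPM in DT and 2839 to 10222 CPM in saline libraries. At 24 h, 2 of 10 fibroblast and 1 of 8 endothelial markers were higher after DT by the test described below. Of 10 macrophage and monocyte markers 1 was lower, and of 2 tested T and NK cell markers 1 was lower. Of 9 tested epithelial markers 3 were higher and 2 lower, and of 8 tested mast cell markers 1 was higher and 2 lower. Over all tested genes 19.9% were called higher and 18.9% lower at that time. The part of these cells in the results below was not tested. In sorted bulk RNA, fewer cells of a type and less RNA per cell cannot be told apart.

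**Figure D1:**
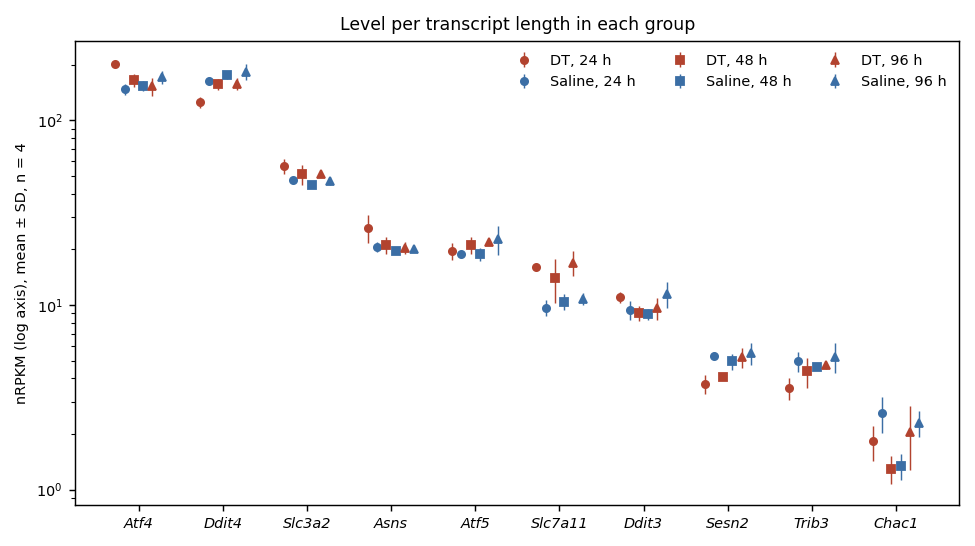
Level of each gene per transcript length (nRPKM, the authors' RPKM adjusted by a size factor; log axis) in the 6 groups, with DT in red, saline in blue, and circles, squares and triangles for 24, 48 and 96 h; points are means and bars SD of 4 libraries. Atf4 and Ddit4 lie above 100 nRPKM in every group, and Chac1 lies lowest, between 1.30 and 2.59 nRPKM.

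On the scale that allows genes to be compared, nRPKM, the 10 genes spanned about 2 orders of magnitude. Over all 24 libraries Atf4 averaged 165 nRPKM and Ddit4 160.5 nRPKM, a pair that changed order between groups. Slc3a2 followed with 49.5 nRPKM, then Asns with 21.3, Atf5 with 20.5, Slc7a11 with 12.98 and Ddit3 with 9.90 nRPKM. Sesn2 with 4.79, Trib3 with 4.57 and Chac1 with 1.90 nRPKM were the lowest. The highest library exceeded the lowest by 1.44 times for Slc3a2 and by 2.24 times for Slc7a11 in CPM, and by 3.39 times for Chac1, whose lowest library held 20 counts.

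At 24 h the axis was divided. Atf4, Asns, Slc7a11 and Slc3a2 were higher in DT than in saline libraries, by 1.19 to 1.66 times, and Trib3, Ddit4 and Sesn2 were lower, by 1.31 to 1.42 times. Atf5, Ddit3 and Chac1 did not pass the test (quasi-likelihood test of edgeR, two-sided, with p adjusted over all 17468 genes after Benjamini and Hochberg and a threshold of 0.05). The 4 genes called higher compare with 19.9% of all tested genes called higher, and the 3 called lower with 18.9% called lower. In the same 7 genes all 4 DT libraries lay beyond all 4 saline libraries, which was so for 18.1% of tested genes upwards and 16.2% downwards. The median log2 fold change of the 10 genes was 0.13, against -0.0036 over all tested genes. The 7 calls were kept without each single library of that time and under each other setting tried.

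**Figure D2:**
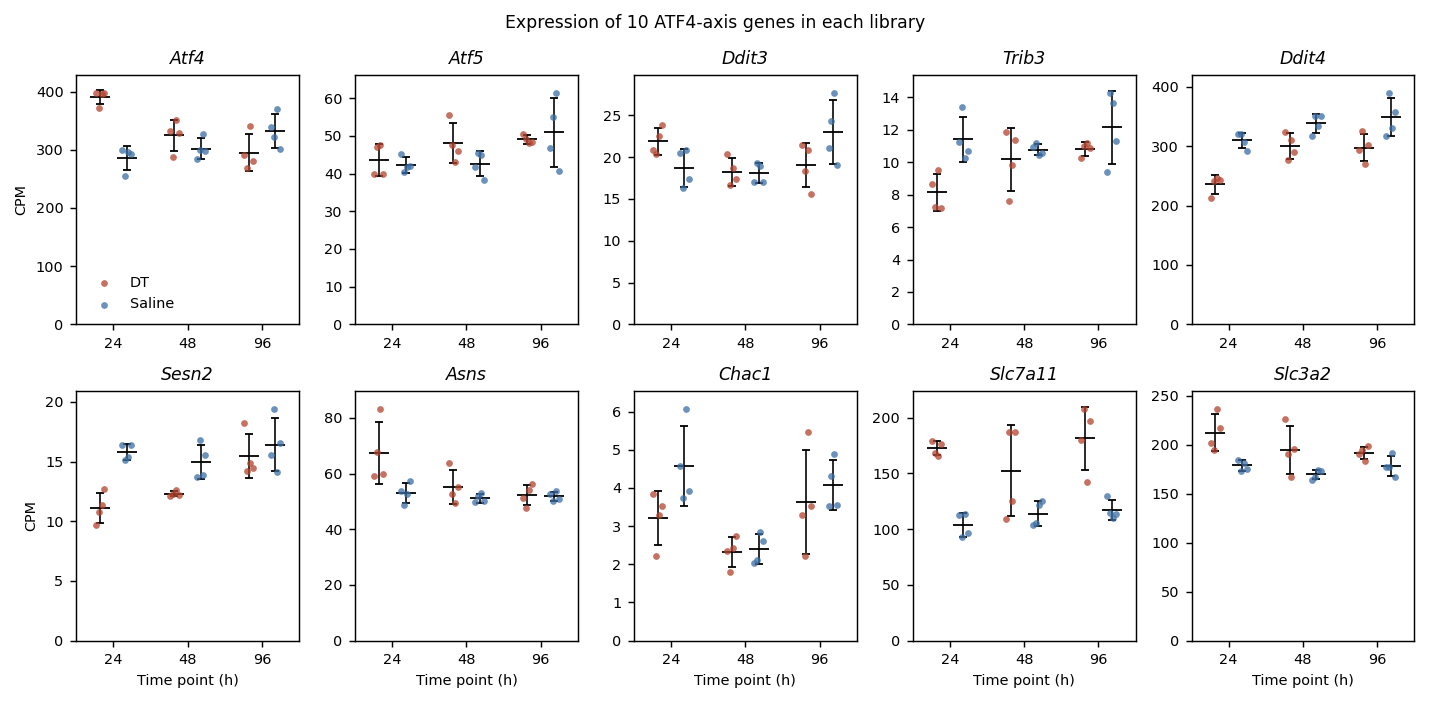
CPM of each gene in each library at 24, 48 and 96 h, DT in red and to the left of saline in blue; the black lines are the mean ± SD of 4 libraries, and each panel has its own axis from 0. At 24 h the DT libraries of Atf4 lie at 372 to 398 CPM, above all saline libraries, and those of Ddit4 lie at 212 to 247 CPM, below all saline libraries.

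Atf4 (Entrez 11911; chromosome 15, 80255184 to 80257545 on GRCm38, plus strand), the factor that gives the axis its name, had 397, 372, 395 and 398 CPM in DT libraries, against 299, 256, 296 and 293 CPM in saline libraries at 24 h. Every DT library was above every saline library. The log2 fold change was 0.45 ± 0.08 (SE; edgeR adjusted p = 6.8e-05). At 48 h Atf4 had 332, 288, 352 and 328 CPM in DT and 284, 299, 328 and 297 CPM in saline libraries, and the groups overlapped (0.10 ± 0.08, adjusted p = 0.413). At 96 h the order of the means was the other way, with 290.2, 269, 340.2 and 280.5 CPM in DT against 339, 321, 369.6 and 301 CPM in saline libraries. The groups overlapped there and the difference did not pass the test (-0.17 ± 0.08, adjusted p = 0.264).

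The other regulators gave no call at any time. Atf5 (Entrez 107503; chromosome 7, 44812256 to 44816658), a relative of ATF4 that it activates, had 39.8 to 47.6 CPM in DT and 40.3 to 45.1 CPM in saline libraries at 24 h (log2 fold change 0.05 ± 0.10, adjusted p = 0.752). Ddit3 (Entrez 13198; chromosome 10, 127290793 to 127296291), which encodes CHOP, had 20.8, 20.4, 22.5 and 23.8 CPM in DT against 20.5, 16.3, 20.9 and 17.4 CPM in saline libraries (0.22 ± 0.11, adjusted p = 0.128). Both of its groups contained libraries near 20.5 CPM, so they overlapped. At 96 h Ddit3 averaged 19.1 ± 2.67 CPM in DT and 23.0 ± 3.78 CPM in saline libraries (-0.27 ± 0.11, adjusted p = 0.231). The use of strand in counting is not given, and exons of Atf5 overlap those of Nup62 and Il4i1, and exons of Ddit3 those of Mars, by up to 82 and 68 bases on the opposite strand, so that some reads may belong to those neighbours.

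Ddit4, Sesn2 and Trib3, the members of the 10 that restrain the response or growth, were lower after DT at 24 h. Ddit4 (Entrez 74747; chromosome 10, 59949675 to 59951770), which encodes the mTORC1 inhibitor REDD1, had 212, 241, 247 and 243 CPM in DT against 319.8, 320.1, 307 and 292 CPM in saline libraries at 24 h. Its highest DT library was below its lowest saline library (log2 fold change -0.39 ± 0.07, adjusted p = 0.000114). Sesn2 (Entrez 230784; chromosome 4, 132492804 to 132510456), a leucine sensor that also acts on mTORC1, had 9.67, 10.8, 11.3 and 12.7 CPM in DT against 16.4, 15.1, 15.4 and 16.4 CPM in saline libraries (-0.50 ± 0.10, adjusted p = 0.000393). Trib3 (Entrez 228775; chromosome 2, 152337425 to 152344060), a pseudokinase that binds ATF4 and limits it, had 8.65, 7.27, 9.53 and 7.18 CPM in DT against 11.2, 13.4, 10.3 and 10.7 CPM in saline libraries (-0.49 ± 0.14, adjusted p = 0.00673). For these genes too the groups did not overlap at 24 h.

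By 48 h none of these brakes passed the test. Sesn2 had 12.1 to 12.6 CPM in DT and 13.7 to 16.8 CPM in saline libraries and still did not overlap, which was so downwards for 8.65% of tested genes (-0.28 ± 0.10, adjusted p = 0.0723). Ddit4 averaged 300.5 ± 21.2 CPM in DT and 339 ± 15.9 CPM in saline libraries (-0.17 ± 0.07, adjusted p = 0.121), and Trib3 10.2 ± 1.92 and 10.8 ± 0.336 CPM (-0.07 ± 0.13, adjusted p = 0.778). At 96 h Ddit4 averaged 298 ± 23.3 CPM in DT and 349 ± 31.9 CPM in saline libraries (-0.23 ± 0.07, adjusted p = 0.0738), and without saline replicate 1 of that time it was called (adjusted p = 0.0450).

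Among the amino acid genes, Slc7a11 changed the most and was the one member called at 96 h. It encodes xCT, the antiporter that imports cystine for glutathione in exchange for glutamate (Entrez 26570; chromosome 3, 50364936 to 50499087). At 24 h it had 179, 168, 166 and 176 CPM in DT against 113, 92.5, 114 and 96.1 CPM in saline libraries. Its lowest DT library exceeded its highest saline library by more than the spread within either group (log2 fold change 0.73 ± 0.14, adjusted p = 0.000242). At 96 h it had 179, 207, 143 and 196 CPM in DT against 130.1, 114, 109.6 and 113 CPM in saline libraries, again without overlap, as for 4.91% of tested genes upwards (0.64 ± 0.14, adjusted p = 0.00943). That single call among the 10 genes compares with 1.01% of tested genes called higher at 96 h and 3.02% called lower, and it was kept without each single library (adjusted p up to 0.0465).

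At 48 h the DT libraries of Slc7a11 fell into 2 levels, 187 CPM in replicates 2 and 4 and 109 and 125 CPM in replicates 1 and 3, against 103, 105, 121 and 125 CPM in saline libraries. The groups overlapped, and the log2 fold change of 0.42 ± 0.14 missed the threshold (adjusted p = 0.0524). The value depended on which DT library was left out. It was 0.55 without replicate 1 (adjusted p = 0.00887) and 0.52 without replicate 3 (adjusted p = 0.0194), but 0.33 without replicate 2 (adjusted p = 0.160) and 0.30 without replicate 4 (adjusted p = 0.198). It was also called by DESeq2 (adjusted p = 0.0281) and by limma (adjusted p = 0.000697). The limma fit gave each library a quality weight, and its log2 fold change was 0.60, so it too depends on how single libraries count.

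Slc3a2, the heavy chain that carries xCT and other amino acid transporters to the membrane (Entrez 17254; chromosome 19, 8706882 to 8723369), moved less. At 24 h it had 202, 194, 236 and 218 CPM in DT against 185, 174, 181.5 and 176 CPM in saline libraries. The groups did not overlap (log2 fold change 0.25 ± 0.07, adjusted p = 0.00754). At 48 h it had 226, 190.2, 167 and 195 CPM in DT against 164, 167, 174 and 174 CPM in saline libraries, where replicate 3 of the DT group, lowest of the DT libraries, lay among the saline libraries (0.20 ± 0.07, adjusted p = 0.0763). Without that library the log2 fold change was 0.28 (adjusted p = 0.00516), and without DT replicate 1, the highest, it was 0.12 (adjusted p = 0.258).

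Asns, asparagine synthetase (Entrez 27053; chromosome 6, 7675165 to 7693209), had 59.2, 67.6, 83.1 and 59.9 CPM in DT against 53.7, 48.6, 52.6 and 57.2 CPM in saline libraries at 24 h. The groups were close but did not overlap (0.35 ± 0.09, adjusted p = 0.00308), and without DT replicate 3, the highest library, the log2 fold change was 0.24 and still called (adjusted p = 0.0178). At 48 and 96 h it was 0.11 ± 0.09 and 0.01 ± 0.09 (adjusted p = 0.454 and 0.977). Chac1, an enzyme that degrades glutathione (Entrez 69065; chromosome 2, 119351242 to 119354326), had 3.85, 2.21, 3.29 and 3.52 CPM in DT against 4.58, 3.75, 6.06 and 3.93 CPM in saline libraries at 24 h. Of the DT libraries, 1 lay inside the saline range, and the difference did not pass (-0.53 ± 0.23, adjusted p = 0.0679). It was called by limma (adjusted p = 0.0252), without DT replicate 1 (adjusted p = 0.0402) and without saline replicate 2 (adjusted p = 0.0460). It was -0.38 without DT replicate 2 and -0.39 without saline replicate 3 (adjusted p = 0.225 and 0.216). At 45 to 89 counts per library at 24 h, this is the least precise of the 10 measurements.

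**Figure D3:**
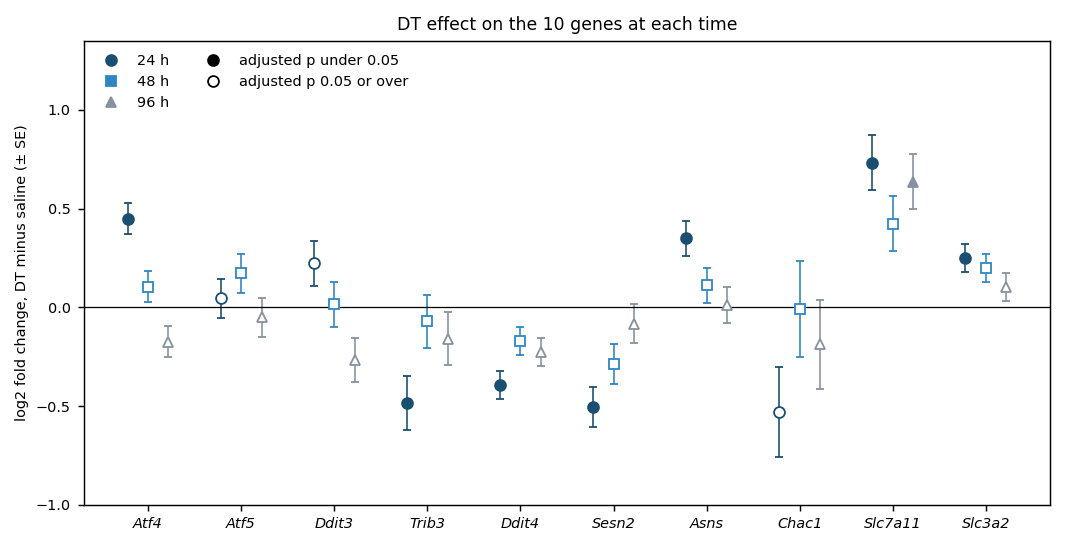
Log2 fold change of DT against saline (± SE, edgeR) for the 10 genes, ordered by role, at 24 h (circles), 48 h (squares) and 96 h (triangles); filled symbols passed an adjusted p of 0.05. Of the filled symbols 7 are at 24 h, 0 at 48 h and 1, Slc7a11, at 96 h.

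At 48 h none of the 10 genes was called by edgeR, against 4.83% of tested genes called higher and 6.48% lower, while 4 of the 10 had an unadjusted p under 0.05. The share of all tested genes at that unadjusted level was not counted. DESeq2 called 2, Slc7a11 and Slc3a2, both higher, and limma called those 2 higher and Ddit4 and Sesn2 lower. These methods also called more of the 17468 tested genes than edgeR. DESeq2 called 975 higher and 1248 lower, and limma 1740 higher and 2235 lower.

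The fade of the Atf4 difference was itself tested. Of the 10 genes only Atf4 had a DT effect that differed among the 3 times (edgeR, adjusted p = 0.00256), against 7.97% of tested genes. Its effect at 96 h was lower than that at 24 h by 0.62 ± 0.11 on the log2 scale (adjusted p = 0.000734), and that at 48 h was lower than that at 24 h by 0.34 ± 0.11 (adjusted p = 0.0953). For Ddit3 the test among the 3 times did not pass (edgeR, adjusted p = 0.135). Its single contrast of 96 against 24 h was called (-0.49 ± 0.16, adjusted p = 0.0478). That call was lost without any of 12 of the 16 libraries involved (adjusted p up to 0.138) and under 4 other settings. For Slc7a11 the difference of the effects between 96 and 24 h was -0.10 ± 0.20 (adjusted p = 0.808). The effect on Sesn2 differed in the other direction (0.42 ± 0.14, adjusted p = 0.0562) and missed the threshold; it was called with upper quartile scaling, DESeq2 and limma (adjusted p = 0.0431, 0.0412 and 0.0305) and without any of 6 of the 16 libraries. The 2 of 10 genes called downwards and 0 called upwards between 96 and 24 h compare with 7.82% of tested genes downwards and 4.08% upwards. No gene of the 10 was called for 48 against 24 h, where 2.9% of tested genes were (3 at an unadjusted p under 0.05; DESeq2 called Atf4, adjusted p = 0.0384).

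Within each treatment the times were also compared. In saline libraries no gene of the 10 was called between 96 and 24 h by edgeR, DESeq2 or limma, against 3.22% of tested genes called by edgeR. Atf4, Atf5, Ddit3 and Ddit4 had unadjusted p under 0.05, all with higher means at 96 h, and for Atf4 every library of 96 h was above every library of 24 h, as for 5.08% of tested genes. Atf5 was called without saline replicate 4 of 96 h (adjusted p = 0.0497). In DT libraries 5 of the 10 were called, 3 higher at 96 h, against 16.6% of tested genes, and 2 lower, against 20.9%. Atf4 fell by 0.40 ± 0.08 on the log2 scale and Asns by 0.37 ± 0.09 at 96 h relative to 24 h (adjusted p = 0.000297 and 0.00219). Ddit4 rose by 0.34 ± 0.07, Sesn2 by 0.47 ± 0.10 and Trib3 by 0.41 ± 0.14 (adjusted p = 0.000778, 0.000883 and 0.0207). The call for Trib3 was lost without DT replicate 2 or 4 of 24 h (adjusted p = 0.0713 and 0.0664). Slc7a11 averaged 181 ± 28.4 CPM at 96 h and 172 ± 6.34 CPM at 24 h in DT libraries (0.08 ± 0.14, adjusted p = 0.695). These comparisons share their DT or saline libraries with those above.

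The promoters of the 10 genes were read for the letters TGATGNAA, the common core of the element that ATF4 binds with its C/EBP partners, on both strands of windows from 250 bases before to 50 bases after the annotated start (RefSeq, GRCm38.p6; 11 windows, since Atf5 has 2). The letters were found for 4 genes, Asns, Chac1, Slc7a11 and Trib3, in 4 of the 11 windows, against 3.97% of 32851 windows of the same length. The 10 genes were chosen as members of the ATF4 axis, so this comparison is not a test of the element. The stretches before the start that hold them, those of Asns, Chac1 and Slc7a11, are shown so that the letters can be read in their context; capitals mark the match, read 5′ to 3′ on the gene's strand, and each stretch is 60 bases long.
Asns, chr6:7693210-7693269, minus strand: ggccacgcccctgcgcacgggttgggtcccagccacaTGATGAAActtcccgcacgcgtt
Chac1, chr2:119351023-119351082, plus strand: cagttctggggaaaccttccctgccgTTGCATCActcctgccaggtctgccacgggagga
Slc7a11, chr3:50443646-50443705, minus strand: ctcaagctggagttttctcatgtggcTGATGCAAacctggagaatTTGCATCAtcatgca
In Slc7a11 the letters occur once on each strand, at bases -66 to -59 and -47 to -40 from the start used, which lies inside the longest annotated span of the gene. In Asns they lie at -23 to -16 and in Chac1, on the opposite strand, at -193 to -186. The match in Trib3 lies after the start, at bases 15 to 22. Of these 4 genes, Asns and Slc7a11 were higher and Trib3 was lower in DT than in saline libraries at 24 h, and Chac1 was not called. Atf4, Slc3a2, Ddit4 and Sesn2 were called at 24 h and hold no match in this window. For Slc3a2, too, the start used lies inside the longest annotated span of the gene.

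Genes with the most similar profiles were found by the root mean square difference of log2 CPM over the 24 libraries, after centring each gene, among 13519 candidates. For Atf4 they were Lonp1, a mitochondrial protease, Clcn7 and Sbds (differences 0.10 to 0.11, against 0.18 for a flat profile). For Slc7a11 they were Homer2, Clcn5 and Acot11 (0.15 to 0.18, against 0.36), and for Ddit4 Mex3d, Ptk7 and Tsc22d1 (0.09, against 0.20). No member of the 10 was among the 3 nearest genes of another.

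The upstream side of the pathway was examined with the same fit; the counts of each list at 24 h stand against 19.9% of all tested genes called higher and 18.9% called lower. At 24 h 4 of the 5 subunits of eIF2B, the exchange factor that phosphorylated eIF2 inhibits, were higher in DT than in saline libraries. Eif2b4 averaged 62.7 CPM in DT and 46.1 CPM in saline libraries (log2 fold change 0.44 ± 0.07, SE, adjusted p = 1.7e-05; n = 4 libraries per group here and below), and Eif2b1 61.9 and 46.5 CPM (0.41 ± 0.08, adjusted p = 0.000405). Of 8 eIF2 kinase, phosphatase and substrate genes 2 rose and 2 fell, near those shares. The eIF2 alpha gene Eif2s1 averaged 112 CPM in DT and 82.8 CPM in saline libraries (0.44 ± 0.08, adjusted p = 8.7e-05). Eif2ak2, the double-stranded RNA kinase PKR and an interferon-induced gene, averaged 80.4 and 51.4 CPM (0.65 ± 0.09, adjusted p = 3.4e-06). The endoplasmic reticulum kinase gene Eif2ak3 averaged 90.0 CPM in DT and 106 CPM in saline libraries (-0.24 ± 0.09, adjusted p = 0.0335), and Impact, an inhibitor of the kinase GCN2, 32.0 and 38.5 CPM (-0.27 ± 0.10, adjusted p = 0.0385). These 2 lower calls were both lost without DT replicate 2 or 3 or saline replicate 3, 1 was left without saline replicate 4, and none was left in a fit of the 24 h libraries alone or without the low-count filter.

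The enzymes and synthetases downstream of ATF4 were mostly higher at 24 h. Of 13 genes of tRNA charging and export 10 rose and 0 fell, with a median log2 fold change of 0.22, and Gars (glycine; 229.6 CPM in DT and 165 CPM in saline libraries, 0.48 ± 0.07, adjusted p = 4.4e-06) and Eprs (glutamate and proline; 305 and 232 CPM, 0.40 ± 0.04, adjusted p = 3.3e-07) were among them. Of 9 serine, proline and one-carbon enzymes 6 rose and 2 fell. Psat1, of serine synthesis, averaged 75.8 CPM in DT and 32.4 CPM in saline libraries (1.23 ± 0.10, adjusted p = 2.9e-09), Mthfd2, of mitochondrial folate metabolism, 23.8 and 12.8 CPM (0.89 ± 0.13, adjusted p = 6.8e-06), and Shmt2 125 and 80.3 CPM (0.64 ± 0.08, adjusted p = 2.1e-06). Pycr1, the last enzyme of proline synthesis, moved the other way, with 54.9 CPM in DT and 195 CPM in saline libraries (-1.82 ± 0.19, adjusted p = 2.5e-07). The second gene that fell, the folate enzyme Aldh1l2, had an adjusted p of 0.0382, and 1 lower call was left without any DT replicate other than 2 or without saline replicate 3 or 4.

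**Figure D4:**
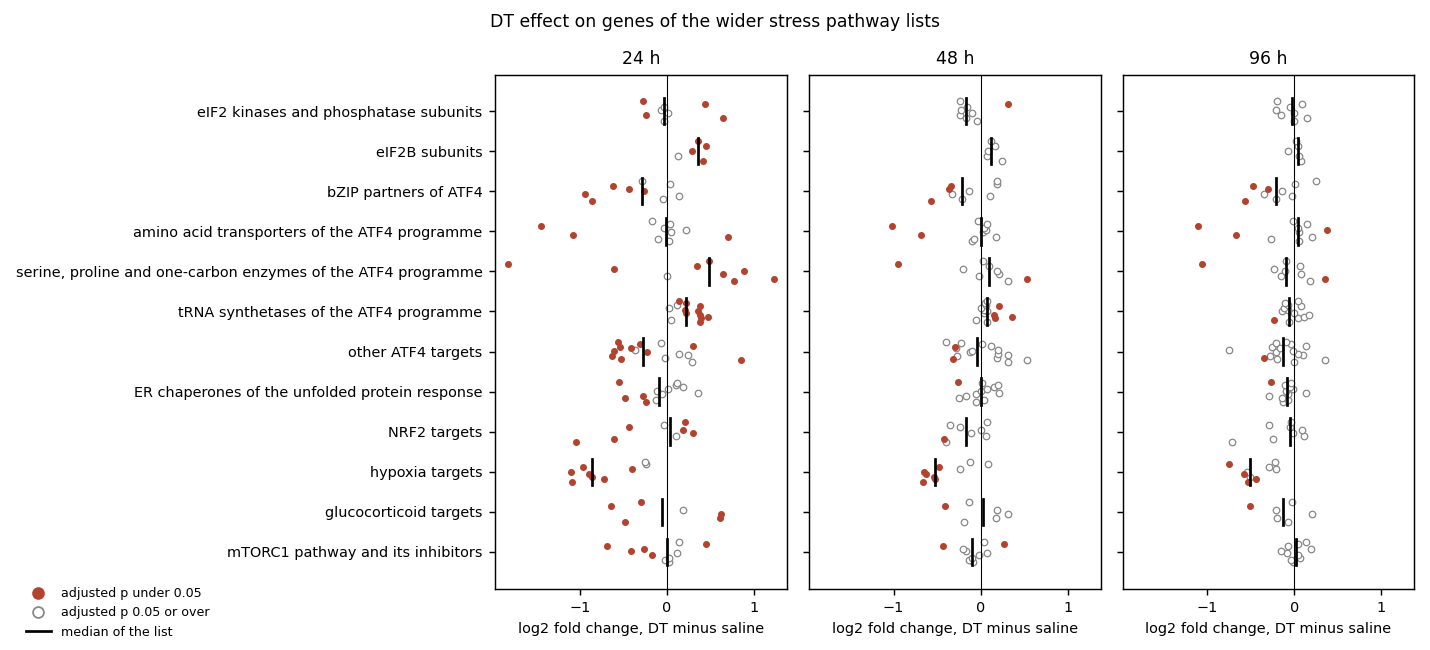
Log2 fold change of DT against saline for the tested genes of 12 lists around the ATF4 axis at 24, 48 and 96 h; each point is a gene, filled in red where it passed an adjusted p of 0.05, and the black bar is the median of the list. At 24 h the medians of the eIF2B (0.36), one-carbon (0.48) and tRNA synthetase (0.22) lists lie above 0, and those of the hypoxia (-0.86), bZIP partner (-0.29) and other ATF4 target (-0.27) lists below it.

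Of 10 further amino acid transporters 1 rose and 2 fell at 24 h, below the 19.9% and near the 18.9% of all tested genes. Slc7a5, the leucine transporter LAT1 that pairs with the Slc3a2 product, averaged 115 CPM in DT and 70.8 CPM in saline libraries (0.71 ± 0.09, adjusted p = 3.4e-06). The glycine transporter Slc6a9 averaged 53.0 CPM in DT and 145 CPM in saline libraries (-1.45 ± 0.12, adjusted p = 6.2e-09), and Slc1a4, which carries neutral amino acids, 68.3 and 144 CPM (-1.08 ± 0.10, adjusted p = 3.8e-08). Both were also lower at 96 h (-1.11 and -0.67, adjusted p = 2.5e-05 and 0.000511). Without DT replicate 3 of 24 h a second transporter was called higher. Of 16 other ATF4 targets 2 rose and 8 fell, among the lower ones the alanine aminotransferase Gpt2 (-0.53 ± 0.08, adjusted p = 1.0e-05), the lipoprotein receptor Vldlr (-0.63 ± 0.12, adjusted p = 0.000171), the stress cytokine Gdf15 (-0.61 ± 0.14, adjusted p = 0.00128) and the cell death gene Bbc3 (-0.54 ± 0.08, adjusted p = 2.0e-05). Of 9 bZIP partners 5 fell and 0 rose, with Atf3 at 455 CPM in DT and 829 CPM in saline libraries (-0.87 ± 0.10, adjusted p = 2.5e-07) and Cebpd at 30.6 and 58.9 CPM (-0.94 ± 0.13, adjusted p = 8.1e-06). The number of bZIP partners called higher was 0 under 7 of 10 other settings and 1 under the rest.

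The remaining lists cover neighbouring programmes, again against 19.9% of all tested genes called higher and 18.9% lower at 24 h. Of 12 endoplasmic reticulum chaperone and related genes 4 fell and 0 rose at 24 h, with Hspa5, the chaperone BiP, at 1013 CPM in DT and 1201 CPM in saline libraries (-0.24 ± 0.09, adjusted p = 0.0270) and Xbp1 at 148 and 217 CPM (-0.55 ± 0.07, adjusted p = 1.1e-06). Without DT replicate 4, 2 of the 4 lower calls were left. The number of these genes called higher was 0 under 5 of 10 other settings and 1 under the rest. Of 9 hypoxia targets, a programme that also includes Ddit4, 7 fell and 0 rose, with Vegfa at 173 CPM in DT and 367 CPM in saline libraries (-1.09 ± 0.12, adjusted p = 4.0e-07). Of 8 targets of NRF2, a factor that also activates Slc7a11, 3 rose and 3 fell, with Txnrd1 at 277 and 244 CPM (0.18 ± 0.05, adjusted p = 0.00360) and Hmox1 at 34.8 and 53.1 CPM (-0.61 ± 0.12, adjusted p = 0.000362). Of 6 tested glucocorticoid targets 2 rose and 3 fell, and of 10 further mTORC1 pathway genes 1 rose and 4 fell, among them the inhibitor Deptor with 50.8 CPM in DT and 82.0 CPM in saline libraries (-0.69 ± 0.12, adjusted p = 7.2e-05).

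Over all tested genes 6765 were called at 24 h, 1976 at 48 h and 704 at 96 h, and the counts of most lists were lower at the later times as well. The shares of all tested genes were 4.83% higher and 6.48% lower at 48 h, and 1.01% higher and 3.02% lower at 96 h. The amino acid transporters had 1 higher and 2 lower at 96 h, as many as at 24 h. The higher one at 96 h was Slc38a1, a glutamine transporter (0.37 ± 0.09, adjusted p = 0.0261), a call lost without DT replicate 2 or 4 or saline replicate 2, 3 or 4. At 48 h 4 of the 13 tRNA charging genes rose, 1 or 2 of them without DT replicate 2 or 4 or saline replicate 1, 3 or 4, and at 96 h 0 rose and 1 fell. Psat1 was higher at both times (0.54 and 0.36, adjusted p = 0.000924 and 0.0365), and Pycr1 lower (-0.95 and -1.06, adjusted p = 0.00230 and 0.00180). Of the hypoxia targets 6 were lower at 48 h, 3 without DT replicate 4 or saline replicate 3 or 4, and 4 at 96 h, 2 without DT replicate 1 or saline replicate 2 and 0 without DT replicate 2 or 4 or saline replicate 3. Atf3 was lower at both times (-0.57 and -0.57, adjusted p = 0.000481 and 0.000874).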

How the data were processed

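PolyA RNA of sorted cells was prepared with the RNeasy Micro kit, per the labels' protocols. The authors deposited, per library, a count of reads aligned uniquely to each gene model and a normalized value named nRPKM, which per the file headers is an RPKM with size-factor adjustment. GSNAP and GRCm38 are named in the submitters' processing notes; their versions, the annotation and the use of strand are not given there or in the labels. Symbols came from RefSeq GRCm38.p6 (31049 of 36528 identifiers, 85.0%; the others held 1.29% to 1.52% of counts and stayed in the fit).

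The count test was that of edgeR 4.0.16, run in R 4.3.3 (TMM, filter by expression within groups, robust quasi-likelihood, 1 mean per group over 24 libraries, 18 residual degrees of freedom). That test prints no SE. Each SE given with a log2 fold change is its size divided by the square root of the F statistic of the test. The nRPKM were used to compare genes and to recover the authors' size factors. DESeq2 1.42.0, limma voom 3.58.1, 3 other scalings, 2 filters, non-robust dispersion, a replicate block, smaller fits and each library left out were alternatives. The limma fit, wherever it is named, gave each library a quality weight. On simulated counts for 17269 genes, 66% of 1.5-fold and 83% of 2-fold changes at 24 h were recovered, with 8 false of 157 calls. The simulation changed 100 genes by each fold and left the others equal in all groups. In the data 6765 genes were called at 24 h, so the adjusted p was stricter in the simulation. Its rates therefore do not describe the 24 h test. No 2 replicates agreed within sampling noise (chi-square per degree of freedom at least 4.24). All 10 members were named; of each list, up to 4 genes with the smallest p at 24 h, of which a part is printed, chosen after their values were seen; Aldh1l2 was named after its value was seen. The members and lists were chosen with earlier results of these data known.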

Additional observations from a re-analysis of the deposited data

Results flagged for a closer look

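Within groups of 4, 3 values of 60 gene and group pairs lay apart from the other libraries by Dixon's test at 95%; chance flags about 1 in 20 groups. Atf4 in DT replicate 2 of 24 h had 372 CPM, below the other 3 DT libraries, and in saline replicate 2 of 24 h 256 CPM, below the other 3 saline libraries. Sesn2 in DT replicate 1 of 96 h had 18.2 CPM, above the other 3 DT libraries. The effect of DT differed between 96 and 24 h for Atf4 (-0.62 on the log2 scale, edgeR adjusted p = 0.000734). For Ddit3 the same contrast was called (-0.49, adjusted p = 0.0478), but the test among all 3 times was not (adjusted p = 0.135). The call for Ddit3 was also lost without any of 12 of the 16 libraries involved.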

How the results depend on the processing

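The 7 calls at 24 h, the call of Slc7a11 at 96 h and that of Atf4 among the 3 times were kept under each setting and each left-out library that was run. At 48 h, where edgeR called 0 of the 10 genes higher and 0 lower, 1 was called higher with upper quartile scaling, with a filter of 1 CPM and with non-robust dispersion, 2 with DESeq2 and 2 with limma, which also called 2 lower. At 96 h limma called 1 lower, against 0. Without single libraries the number called at 24 h was 4 to 4 higher and 3 to 4 lower. It was 0 to 2 higher and 0 to 0 lower at 48 h, and 1 to 1 higher and 0 to 1 lower at 96 h. It was 0 to 1 between times in saline libraries, 4 to 5 in DT libraries and 1 to 1 among the DT effects. Calls over all genes numbered 1976 at 48 h, 704 at 96 h and 563 between times in saline libraries; limma gave 3975, 1561 and 1167, DESeq2 gave 978 for the last, no filter gave 321 for the last, and fits of the compared libraries alone gave 945 at 48 h and 322 for the last. Leaving out 1 library gave 1165 (DT replicate 4) to 2742 (DT replicate 3) at 48 h, 358 (DT replicate 2) to 677 at 96 h and 91 (saline replicate 2 of 96 h) to 1204 (saline replicate 1 of 96 h) for the last, so the shares of all tested genes beside the members move too; at 24 h, with 6765 calls, the range was 5961 to 6729. Among the 3 times 1392 genes were called, 840 (without saline replicate 2 of 24 h) to 2070 (without DT replicate 1 of 48 h). Replicate numbers gave no sign of pairing (12 pairs, r of deviations -0.356 to 0.13, 2 over 0.1). Pairs of unlike number ran from -0.286 to 0.284, so the check cannot show that there is none. With a replicate block 4, 0 and 1 of the 10 genes were higher and 3, 0 and 0 lower at the 3 times, 1 differed among times, the call for Ddit3 was lost (adjusted p = 0.0607), and calls over all genes numbered 5625, 933 and 301. The 96 against 24 h comparisons within a treatment could not be fitted with the block. The fit of compared libraries alone was not run for differences of the DT effect among times. For the test among all 3 times it equals the full fit. For 2 times, as in the call for Ddit3, it would differ from the full fit and was not tried. The signs that turned belong to log2 fold changes that passed no test: Chac1 at 48 h was -0.01, and 0.0054 with upper quartile scaling, 0.0183 with no filter, 0.0006 with the 1 CPM filter and 0.11 with limma; Slc3a2 between times in saline libraries was 0.0025 with no filter; with limma Ddit3 was -0.0467 at 48 h and Atf5 0.0319 at 96 h. Without single libraries, at 48 h Ddit3 ranged over -0.039 to 0.0677, Trib3 over -0.15 to 0.0487 and Chac1 over -0.11 to 0.10; at 96 h Atf5 over -0.14 to 0.0681 and Asns over -0.0056 to 0.0564; in saline libraries, 96 against 24 h, Slc3a2 over -0.0491 to 0.028, Trib3 over -0.0035 to 0.19 and Sesn2 over -0.0339 to 0.10; in DT libraries Chac1 over -0.054 to 0.35. Likewise the DT effect of 48 against 24 h ranged over -0.13 to 0.0472 for Slc3a2, that of 96 against 24 h over -0.19 to 0.04 for Atf5 and -0.17 to 0.0467 for Slc7a11, and that of 96 against 48 h over -0.41 to 0.0054 for Chac1 and -0.10 to 0.0033 for Ddit4. The causes were not tested. Chac1 had the lowest counts of the 10 genes, at 20 to 89 per library.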
